A study of Mus musculus with 4 samples.

Results

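The mitochondrial ribosomal protein genes are the nuclear genes whose products, together with the ribosomal RNAs encoded in mitochondrial DNA, build the ribosome of the mitochondrion. They were taken as the protein-coding genes with a symbol of Mrpl (large subunit) or Mrps (small subunit) followed by a digit, with pseudogenes left out. This gave 78 of the 55414 genes in the count tables, 49 for the large subunit and 29 for the small subunit. All 78 passed the low-count filter that left 19912 genes for testing, and their counts ran from 98 (Mrps12 in wild type replicate 1) to 2000 (Mrpl13 in knockout replicate 2).

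The libraries came from primary neural stem cells of mouse cortex at embryonic day 14.5, cultured as spheres and then as an adherent layer in medium with EGF and basic FGF. There were 2 wild type libraries and 2 Mettl4 knockout libraries, and the labels used here give no strain, sex or description of the allele, nor a treatment beyond the culture medium that both groups share. Mettl4 encodes an adenine methyltransferase, and the series sets the RNA of knockout cells against that of wild type cells. The labels do not say whether the replicates of a group are separate embryos or cultures, so each p-value reflects only how far these 4 libraries spread, and that spread may be technical. In bulk RNA, fewer cells of a type and less RNA per cell cannot be told apart.

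Mitochondrial ribosomes translate the few proteins encoded in mitochondrial DNA, all of them membrane subunits of the respiratory chain and ATP synthase. Every protein of these ribosomes is made in the cytosol and imported, so the nuclear genes must be expressed together with the mitochondrial ribosomal RNAs. Part of the proteins descend from bacterial ribosomal proteins, and the others were added in the mitochondrial lineage. Neural stem cells use glycolysis to a large degree, and mitochondrial activity is known to change as they differentiate.

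Mettl4 was checked first. Its level in CPM (counts scaled to library size with TMM factors) was 63.7 in wild type replicate 1 and 66.5 in replicate 2, against 15.6 and 17.5 in the knockout. Both knockout libraries lay far below both wild type libraries, and Mettl4 fell by 1.97 on the log2 scale (SE 0.17, adjusted p = 0.00512 by edgeR). Which exons the allele lacks is not stated in the labels, so reads left in the knockout may lie outside the deleted stretch. It was the only gene of the 19912 called at an adjusted p under 0.05 (0.00502% of those tested), and 551 genes (2.77%) had an unadjusted p under 0.05.

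Library totals ran from 12812064 to 19310668 counts. Of the 8 neural stem cell markers all were measured, among them Nes, an intermediate filament of neural progenitors, at 257 to 398 CPM, and the transcription factor Sox2 at 174 to 213 CPM. Markers of other cells were also present, with Olig1 of the oligodendrocyte lineage at 759 to 910 CPM, and Csf1r, the most abundant of the 5 microglial markers, at 4.10 to 5.80 CPM. The microglial marker Tmem119 had no count in any library.

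The genes lie on 17 chromosomes, with at most 11 on one (chromosome 11), and promoter sequences are shown as a feature that scattered genes can share. The 150 bases before the transcription start, from RefSeq on GRCm38.p6, are given 5′ to 3′ on the strand of the gene for 4 genes, of which Mrpl22, Mrpl32 and Mrps11 had among the largest positive genotype differences of their subunit and Mrpl10 one of the most negative. Capitals mark the motifs named in the next paragraph.
Mrpl22 (chr11:58171514-58171663, plus strand): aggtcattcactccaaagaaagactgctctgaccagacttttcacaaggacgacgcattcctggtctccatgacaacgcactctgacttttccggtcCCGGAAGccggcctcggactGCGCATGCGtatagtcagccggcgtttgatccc
Mrpl32 (chr13:14613038-14613187, minus strand): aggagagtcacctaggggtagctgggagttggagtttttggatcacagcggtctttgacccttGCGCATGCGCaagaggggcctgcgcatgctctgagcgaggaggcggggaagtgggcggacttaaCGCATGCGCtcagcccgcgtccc
Mrpl10 (chr11:97041432-97041581, plus strand): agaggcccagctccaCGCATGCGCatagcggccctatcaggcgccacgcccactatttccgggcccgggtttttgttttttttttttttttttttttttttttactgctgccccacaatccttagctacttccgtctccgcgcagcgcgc
Mrps11 (chr7:78782981-78783130, plus strand): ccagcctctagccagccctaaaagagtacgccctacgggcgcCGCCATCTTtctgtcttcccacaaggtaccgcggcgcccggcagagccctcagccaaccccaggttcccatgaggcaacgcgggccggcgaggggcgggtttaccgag

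The motifs were searched on both strands in the window from 250 bases before to 50 bases after the start, and 69 of the 78 genes had an entry in the table. GCGCATGCG, the letters bound by NRF1, a regulator of nuclear genes for mitochondrial proteins, occurred in 7 of the 69 (10.1%), against 1.95% of all 27025 genes in the table and 4.10% of the tested protein-coding genes. CCGGAAG, the core of ETS family sites, which include those of GABPA (also called NRF2), occurred in 26 (37.7%), against 9.93% and 19.4%. AAGATGGCG, a YY1 motif, occurred in 8 (11.6%), against 1.64% and 3.44%. By subunit, the NRF1 letters occurred in 6 of 43 large subunit genes (14%) and in 1 of 26 small subunit genes (3.85%). The small subunit share was not above the 4.10% of tested protein-coding genes. The ETS letters occurred in 34.9% of the large and 42.3% of the small subunit genes, and the YY1 letters in 9.3% and 15.4%. No motif contains another, but an NRF1 match can be read on both strands with a shift of 1 base, as in the first marked run of Mrpl32. A match is a description of the sequence only. The genotype difference, as log2 fold change of knockout minus wild type, had a median of 0.04 in the 7 genes with the NRF1 letters and of -0.01 in the others. It was -0.03 with the ETS letters and 0.01 without, and -0.07 with the YY1 letters and -0.01 without. Mrpl22, with an NRF1 match 33 bases before its start, and Mrpl10, with one 135 bases before, stood at opposite ends of the large subunit's differences.

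Many of the genes have a close neighbour. A protein-coding gene started upstream on the opposite strand within 1000 bases for 18 of the 78 (23.1%), against 9.95% of all tested protein-coding genes. Exons of 33 genes overlapped exons of another gene, 28 of them on the opposite strand. The share of all tested genes with such an overlap was not counted. Mrps11 and Mrpl46 overlap each other on opposite strands. Whether the counting used strand is not stated in the labels, so counts of these genes may include reads of the neighbour.

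The summed level of neither subunit separated the genotypes. For the large subunit, the genes added up to 1891 CPM in wild type replicate 1, 2093 in wild type replicate 2, 1774 in knockout replicate 1 and 2155 in knockout replicate 2. For the small subunit they added to 1063, 1170, 1046 and 1180 CPM in the same order. In both subunits the knockout CPM sums enclosed the wild type sums, and the log2 ratio of knockout to wild type means was -0.02 for the large and 0.00 for the small subunit. As a share of all counts, the large subunit took 0.1960% and 0.2037% in wild type libraries, 0.1856% and 0.2043% in knockout libraries, and the small subunit 0.1101% and 0.1139% against 0.1094% and 0.1119%. By share the knockout values again enclosed the wild type values in the large subunit. In the small subunit the shares of the genotypes overlapped, but the knockout values did not enclose the wild type values. The 95% Wilson interval of knockout replicate 1 for the large subunit ran from 0.1836% to 0.1876% and that of wild type replicate 1 from 0.1935% to 0.1984%. These intervals cover counting error only.

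**Figure D1:**
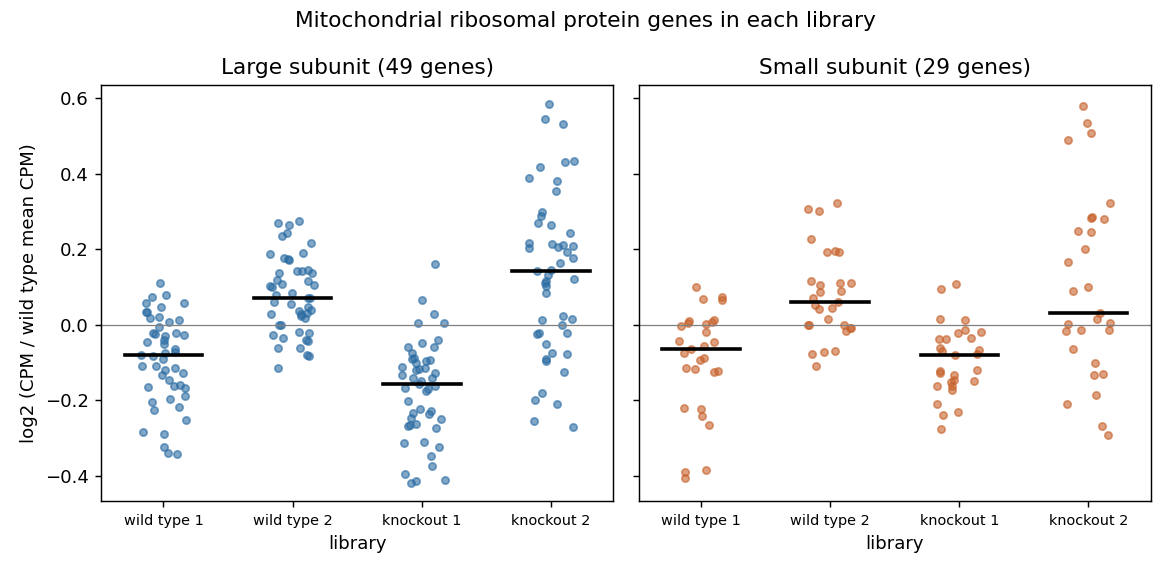
Each point is a gene in a library, as log2 of its CPM over its mean CPM in the wild type, with large subunit genes on the left and small subunit genes on the right; the black bars are medians. Medians of both subunits were below 0 in replicate 1 of each genotype and above 0 in replicate 2.

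Tested singly, 0 of the 78 genes were called in the edgeR fit, where 0.00502% of all genes were, and 0 had an unadjusted p under 0.05, where 2.77% of all genes did. DESeq2 and limma-voom also called 0 and put 0 under an unadjusted p of 0.05. The smallest unadjusted p was 0.180, for Mrpl44, and the adjusted p was 1 for each gene. In the large subunit there were 22 positive and 27 negative log2 fold changes (median -0.01). The small subunit had 15 and 14 (median 0.00). Over all tested genes 49.7% were positive and the median was 0.00.

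The intervals bound the size of a difference. The standard error of a log2 fold change had a median of 0.18 over the 78 genes, against 0.25 over all tested genes. The 95% intervals of all 78 genes lay between -0.71 and 0.86 on the log2 scale, so each excluded a log2 difference of 1 in either direction in the reported fit of all 4 libraries. This bound did not hold without wild type replicate 2, where the intervals of 9 genes passed 1 and reached 1.24, nor without knockout replicate 1, where those of 6 genes did and reached 1.11. In the alternative fit that removed the GC trend and kept all 4 libraries, the interval of 1 gene reached 1.00. Differences inside an interval could not be told from 0 with this many libraries.

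**Figure D2:**
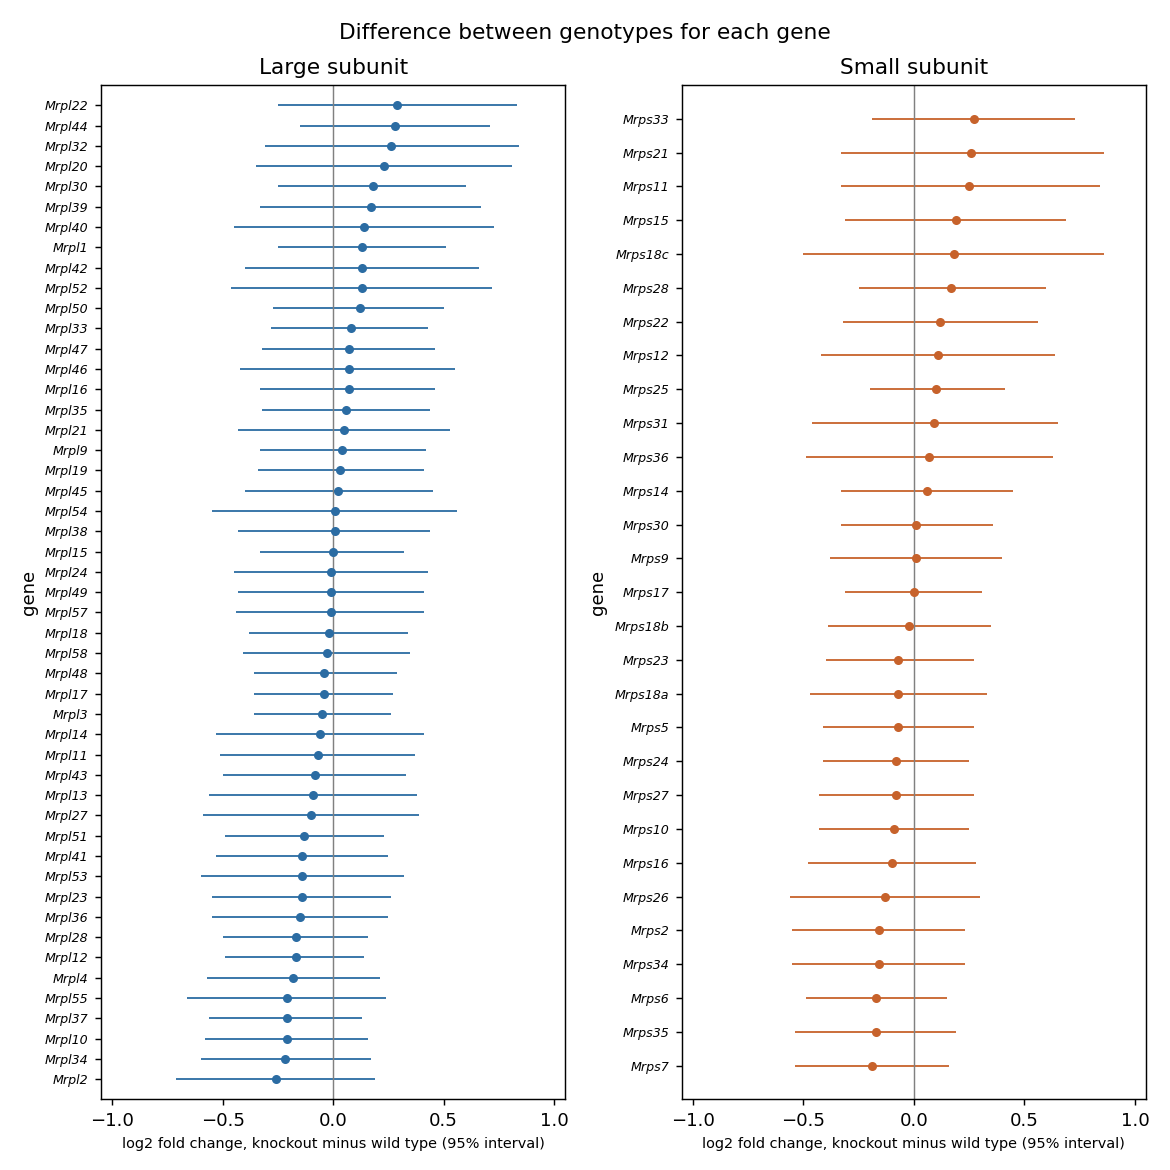
Log2 fold change, knockout minus wild type, of each gene (points) with its 95% interval from the edgeR fit (lines), ordered by size. All 78 intervals include 0 and lie between -0.71 and 0.86.

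Among large subunit genes the most positive differences were those of Mrpl22, Mrpl44, Mrpl32 and Mrpl20. Mrpl22, which lines the tunnel through which the new protein leaves, had 15.3 CPM in wild type replicate 1, 16.2 in wild type replicate 2, 15.0 in knockout replicate 1 and 23.7 in knockout replicate 2. Only knockout replicate 2 was high, and the groups overlapped (log2 fold change 0.29, SE 0.24). Mrpl44, a protein with a ribonuclease III fold, had 17.8, 19.5, 20.9 and 24.5 CPM in the same order. Here both knockout libraries were above both wild type libraries (log2 fold change 0.28, SE 0.19, unadjusted p = 0.180 by edgeR). Mrpl32, whose maturation needs the mitochondrial m-AAA protease, had 15.1, 22.7, 18.3 and 27.3 CPM, and Mrpl20 had 20.3, 29.2, 22.1 and 36.2 CPM. In both genes each replicate 2 was above each replicate 1, and the log2 fold changes were 0.26 (SE 0.26) and 0.23 (SE 0.26).

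The most negative differences of the large subunit were those of Mrpl2, Mrpl34, Mrpl10 and Mrpl37. Mrpl2, whose bacterial counterpart lies near the peptidyl transferase centre, had 19.8, 21.2, 15.4 and 18.8 CPM. Both knockout libraries were below both wild type libraries (log2 fold change -0.26, SE 0.20, unadjusted p = 0.223 by edgeR). Mrpl34 had 37.4, 38.7, 29.4 and 36.2 CPM, with knockout replicate 1 the lowest (log2 fold change -0.22, SE 0.17). Mrpl10, which holds the stalk that binds translation factors, had 34.8, 33.1, 28.9 and 29.6 CPM (log2 fold change -0.21, SE 0.17). The knockout values of Mrpl10 were close to each other and below the wild type values. Mrpl37, a protein without a bacterial counterpart, had 49.9, 45.9, 43.0 and 39.7 CPM, also with no overlap (log2 fold change -0.21, SE 0.16). None of these passed the test.

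Small subunit genes covered a similar range. Mrps33 had 43.3, 57.6, 49.9 and 71.7 CPM, again in the order wild type 1, wild type 2, knockout 1, knockout 2 (log2 fold change 0.27, SE 0.21). Its groups overlapped, and its counts are uncertain because Gm5776, a pseudogene that RefSeq lists as a copy of Mrps33, was counted at 15.3, 18.5, 17.0 and 26.5 CPM. Mrps21 had 13.2, 17.6, 14.1 and 23.0 CPM (log2 fold change 0.26, SE 0.27), and Mrps11, a protein of the platform that holds messenger RNA, had 15.5, 25.1, 20.0 and 28.5 CPM (log2 fold change 0.25, SE 0.26). For both, the groups overlapped and each replicate 2 was above its replicate 1. Mrps15 had 10.1, 9.19, 10.3 and 11.7 CPM, with both knockout libraries above both wild type libraries by a small margin (log2 fold change 0.19, SE 0.23).

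On the negative side, Mrps7, a head protein with a bacterial counterpart, had 48.2, 56.5, 44.3 and 47.7 CPM (log2 fold change -0.19, SE 0.16). Mrps35 had 36.0, 40.8, 35.0 and 33.2 CPM (log2 fold change -0.17, SE 0.17). Mrps6 had 71.0, 78.6, 64.7 and 68.4 CPM (log2 fold change -0.17, SE 0.14). In these 3 genes both knockout libraries were below both wild type libraries. Mrps6 shares exons with Slc5a3 on the same strand, so reads of these genes cannot be told apart with certainty. Mrps34, a protein added in the mitochondrial lineage, had 31.9, 31.8, 30.5 and 26.4 CPM, again without overlap (log2 fold change -0.16, SE 0.17).

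Across the whole set, both knockout libraries were above both wild type libraries for 3 genes (Mrpl44, Mrps15 and Mrps25), where 12.5% of all tested genes were. They were below for 14 genes, 8 of the large and 6 of the small subunit, where 14.9% of all tested genes were. With library totals in place of TMM factors the counts were 6 and 17, where 13.1% and 13.5% of all tested genes were. They were 3 and 12 with RLE factors (13.2% and 14.1%) and 3 and 15 with upper quartile factors (13.1% and 14.3%).

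The genes were also sorted by where their products sit in the ribosome, with 0 genes of any group called. The stalk proteins Mrpl10, Mrpl11, Mrpl12, Mrpl53 and Mrpl54 had 1 positive and 4 negative log2 fold changes, with a median of -0.14. Mrpl12, the stalk protein itself, had 115, 112, 94.3 and 108 CPM, without overlap (log2 fold change -0.17, SE 0.14). The 8 genes for proteins at the tunnel exit had 5 positive and 3 negative values, with a median of 0.04, and the 6 of the central protuberance 3 and 3, with a median of -0.01. Proteins with a bacterial counterpart numbered 30 in the large subunit (12 positive, 18 negative, median -0.03) and 16 in the small subunit (9 positive, 7 negative, median 0.01). Those listed without one numbered 19 (10 positive, 9 negative, median 0.01) and 10 (4 positive, 6 negative, median -0.04). Mrps18b was listed among the latter, although its paralogue Mrps18c was listed with a bacterial counterpart.

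A few symbols do not match the place of the protein. The products of Mrps30 and Mrps18a sit in the large subunit, and Mrps36 belongs to the oxoglutarate dehydrogenase complex. Sorted by place, the medians were -0.01 for the large subunit (51 genes) and -0.01 for the small subunit (26 genes). The 3 paralogues Mrps18a, Mrps18b and Mrps18c occupy different sites. Mrps18a had 22.5, 24.5, 22.9 and 21.9 CPM, and Mrps18b had 30.8, 30.4, 30.2 and 30.3 CPM, both nearly flat over the 4 libraries. Mrps18c had 14.8, 24.5, 16.2 and 28.4 CPM, with both replicates 2 high. Their log2 fold changes were -0.07 (SE 0.18), -0.02 (SE 0.17) and 0.18 (SE 0.31).

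These genes differed between libraries of the same genotype. The library labelled replicate 2 was above the one labelled replicate 1 for 57 of the 78 genes among wild type libraries, where 49.9% of all tested genes were above, and for 67 of the 78 in the knockout, where 46.8% were. Both held for 53 genes, against 30.5% of all tested genes. The large subunit had 37 of 49 genes above in the wild type and 44 in the knockout, and the small subunit 20 and 23 of 29. The median difference, replicate 2 minus replicate 1 on the log2 scale, was 0.16 for wild type and 0.30 for knockout libraries in the large subunit, and 0.12 and 0.16 for the small subunit. Over all tested genes it was 0.00 and -0.03.

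Single genes show its size. Mrps18c had the largest difference in both genotypes, at 0.73 for wild type and 0.81 for knockout libraries, and Mrps11 had 0.69 and 0.51. Mrpl13, of which the bacterial counterpart binds early in assembly, had 82.5, 110, 72.2 and 109 CPM, so its replicates 2 nearly met and its replicates 1 were both lower. By contrast, Mrpl28 had 61.5, 59.7, 57.0 and 50.8 CPM, with replicate 2 the lower in each genotype. The count depends on the scaling. With library totals alone the median over all tested genes moved to -0.09 for wild type and -0.17 for knockout libraries, the large subunit had 29 and 37 of 49 genes above in replicate 2 and the small subunit 16 and 16 of 29, where 39.6% and 33.1% of all tested genes were. Relative to the median of all tested genes the large subunit was higher by 0.16 and 0.33 and the small subunit by 0.12 and 0.19, a value that no scaling factor can change, since such a factor shifts all genes of a library alike.

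The wild type and knockout differences, which share no library, had a Pearson correlation of 0.55 across the 78 genes (Spearman 0.53), and also one of 0.55 across 9933 protein-coding genes of at least 8 CPM. Genes are not independent replicates, and this is a description of the libraries. Cell markers did not all follow replicate number. Of the 8 neural stem cell markers 3 were higher in replicate 2 of both genotypes, and their sum was 4208, 4640, 4201 and 5395 CPM. Fabp7, a lipid-binding protein of radial glia, made up 1632, 2114, 1826 and 2979 CPM of it. All 4 astrocyte markers were higher in replicate 2 among wild type libraries and 0 of 4 among knockout libraries. Between genotypes, all 6 oligodendrocyte lineage markers had a positive log2 fold change (median 0.36), where 49.7% of all tested genes did. In 4 of the 6 both knockout libraries were above both wild type libraries, where 12.5% of all tested genes were. Neural stem cell markers had 4 positive and 4 negative values, and astrocyte markers 2 and 2. None of these markers was called, and their part in the genotype differences of the set was not tested. Across the 9933 genes, GC content had a correlation of -0.47 with the wild type replicate difference and of -0.38 with the knockout one, and log2 length of all exons one of -0.17 and -0.32. Across the 78 genes these were -0.17 and -0.10 for GC content and -0.16 and -0.30 for length. The part of GC content, length and markers in the replicate difference was not tested.

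**Figure D3:**
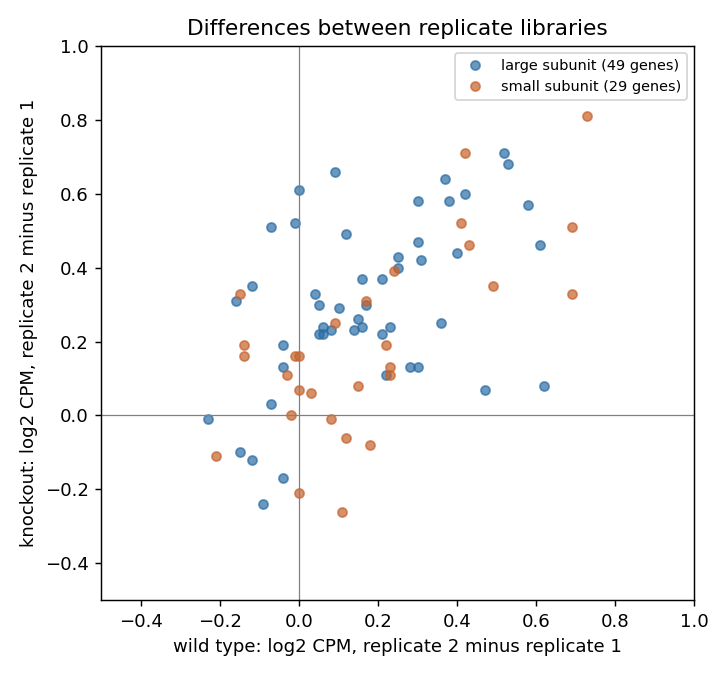
Difference between replicate 2 and replicate 1 in log2 CPM for each gene, wild type on the horizontal axis and knockout on the vertical axis, large subunit in blue and small subunit in orange. Most points (53 of 78) lie at the upper right, where replicate 2 is above replicate 1 in both genotypes.

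Leaving out 1 library changed the balance of positive and negative genotype differences. Without wild type replicate 1, 8 of 49 large and 8 of 29 small subunit genes were positive; without wild type replicate 2, 30 and 15. Without knockout replicate 1 the numbers were 35 and 18, and without knockout replicate 2 they were 5 and 4. No gene of the set was called in any of these fits.

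Genotype difference and GC content of the longest transcript had a negative correlation across the genes, weaker in the small subunit than in the large. The Pearson correlation was -0.30 over the 78 genes, -0.41 over the large subunit and -0.10 over the small subunit, and -0.20 over 9932 protein-coding genes of at least 8 CPM. Of the genes at or above the median GC of 49.8%, 13 were positive and 26 negative, and below it 24 were positive and 15 negative. Thus 33.3% and 61.5% were positive, against 43.8% and 58.8% of the protein-coding genes of at least 8 CPM on either side of the same GC value. Both subunits split in the same direction. At or above this value 32% of the large and 35.7% of the small subunit genes were positive, and below it 58.3% and 66.7%. Log2 length of all exons had a correlation with the genotype difference of -0.40 in the small and 0.17 in the large subunit. Over the 78 genes it was -0.03, and over 9933 protein-coding genes of at least 8 CPM 0.04. The part of GC content and length in the genotype differences was not tested.

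**Figure D4:**
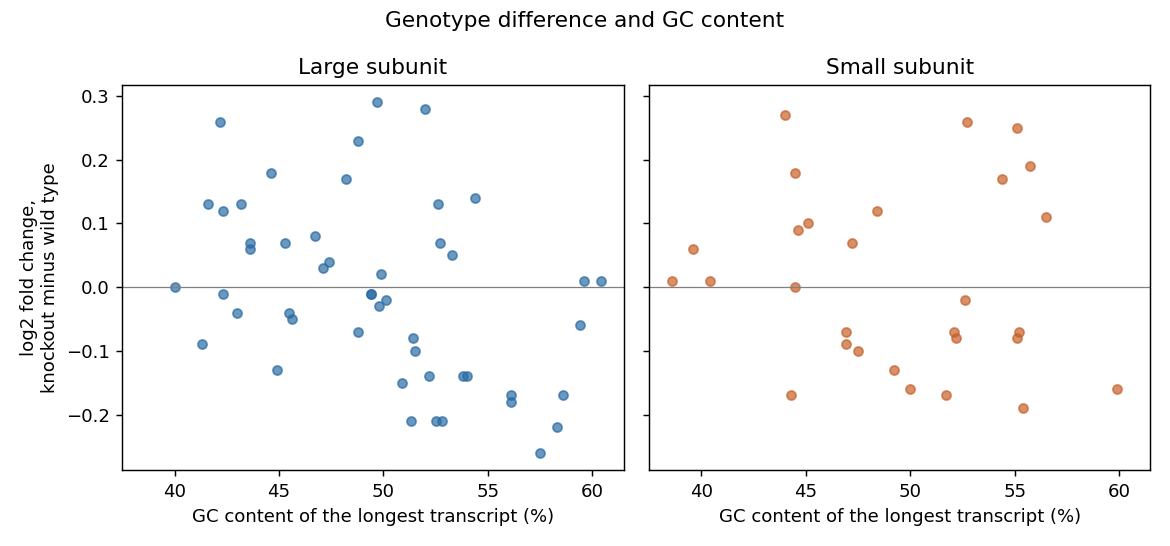
Log2 fold change, knockout minus wild type, against the GC content of each gene's longest transcript in percent, large subunit left and small subunit right. In the large subunit, low-GC genes sit higher than high-GC genes, with a Pearson correlation of -0.41.

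Levels within a subunit, whose proteins mostly occur in equal copy number, ranged widely as CPM per kilobase of principal transcript. The large subunit had a median of 21.5 and the small subunit one of 25.1. Mrpl33 was highest, at 101, 112, 103 and 123 over the 4 libraries, then Mrps6 at 83.9, 92.9, 76.4 and 80.8 and Mrpl12 at 87.5, 85.4, 71.7 and 81.8. The ranges of Mrps6 and Mrpl12 overlap, so their order is not settled, and Mrpl13, at a mean of 76.5, overlaps them as well. In the small subunit Mrps24 (mean 56.1) and Mrps33 (mean 50.2) followed Mrps6, and these 2 overlap each other.

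Lowest were Mrps26 at a mean of 4.63, Mrpl32 at 6.92, Mrpl19 at 7.43, Mrps35 at 8.71, Mrps12 at 9.40 and Mrpl17 at 9.68 CPM per kilobase. Mrps12, a protein of the decoding centre, had 8.36, 9.72, 9.13 and 10.4 in the 4 libraries, and Mrpl17 had 10.4, 9.31, 9.86 and 9.20. The 2 ranges overlap. The order depends on the length used. With the length of all exons in place of the principal transcript, Mrpl33 came to 7.16 in place of 110 and Mrps6 to 46.1 in place of 83.5, and the rank correlation of both levels was 0.583 in the large and 0.673 in the small subunit.

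**Figure D5:**
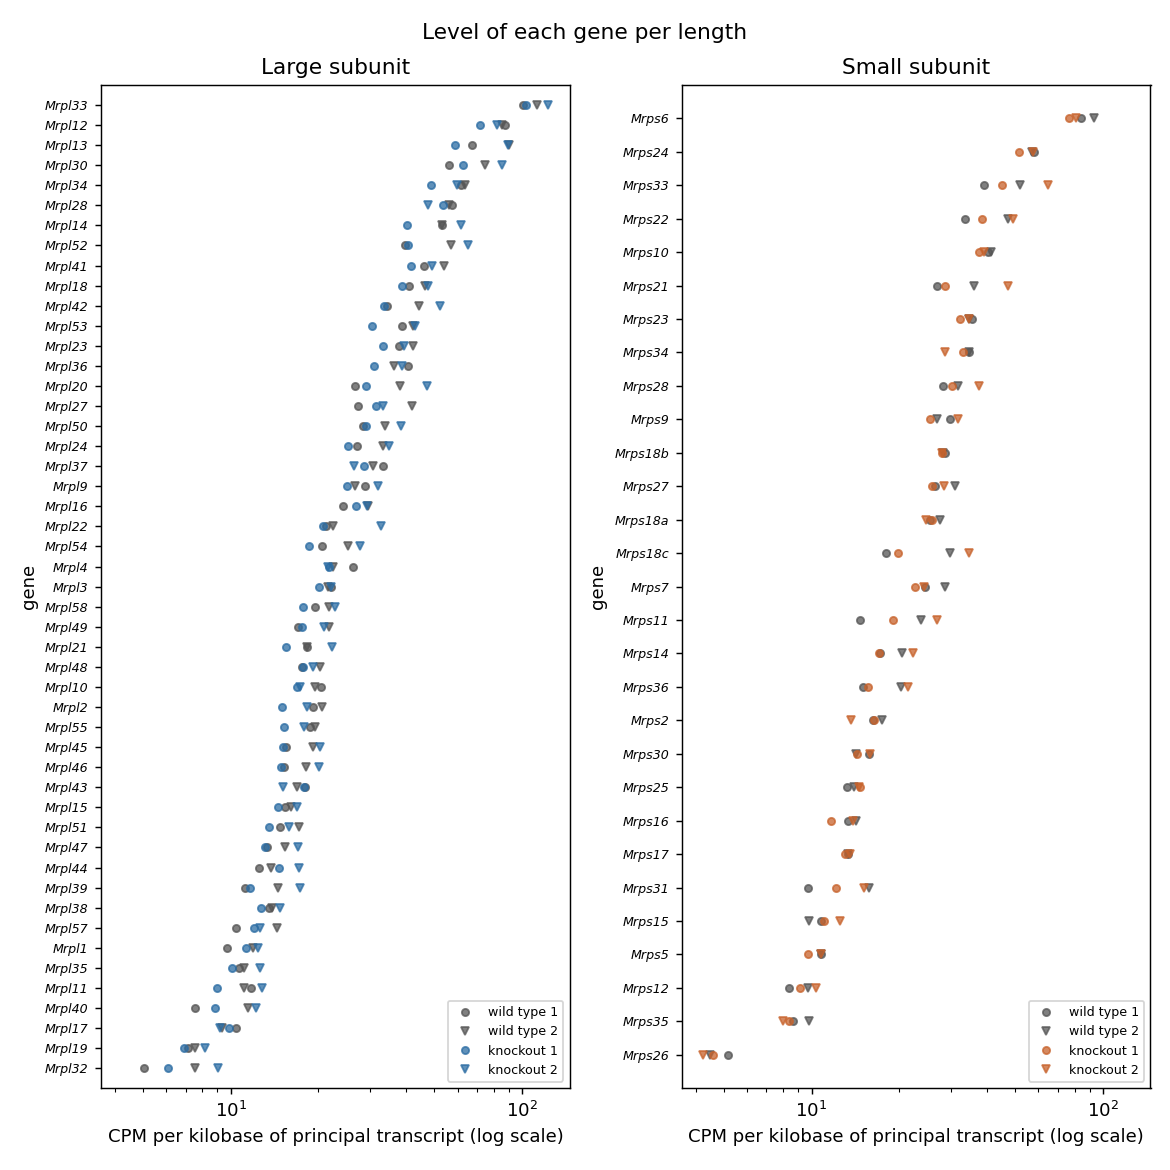
CPM per kilobase of principal transcript (log axis) of each gene in the 4 libraries, circles for replicate 1 and triangles for replicate 2, grey for wild type and coloured for knockout. Genes are ordered by mean, from Mrps26 at 4.63 to Mrpl33 at 110, and the points of a gene lie close together compared with that range.

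The other genes of mitochondrial translation were read from the same fit. Proteins of the ribosome that lack an Mrp symbol (Dap3, Ptcd3, Chchd1, Aurkaip1 and Gadd45gip1) had 3 positive and 2 negative log2 fold changes, with a median of 0.08. Chchd1 had 59.2, 104, 80.9 and 103 CPM, Aurkaip1 had 31.4, 38.2, 31.0 and 45.1 CPM and Gadd45gip1 had 29.4, 31.8, 31.0 and 33.6 CPM. Their log2 fold changes were 0.17 (SE 0.25), 0.13 (SE 0.21) and 0.08 (SE 0.17), and the groups overlapped in each. Dap3, a GTP-binding protein of the small subunit, had 75.3, 75.6, 71.0 and 75.3 CPM, and Ptcd3 had 130, 135, 127 and 136 CPM. Both were nearly equal between genotypes, with log2 fold changes of -0.04 (SE 0.14) and -0.01 (SE 0.14).

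The ribosomal RNAs of the mitochondrion are transcribed inside the organelle. The small subunit RNA mt-Rnr1 was counted at 22.0, 12.8, 8.64 and 12.8 CPM (log2 fold change -0.69, unadjusted p = 0.0414, adjusted p = 1 by edgeR), with wild type replicate 1 well above the other libraries. Without that library its log2 fold change was -0.26. The large subunit RNA mt-Rnr2 was counted at 856, 1305, 970 and 2197 CPM (log2 fold change 0.55, SE 0.37). In both genes the groups overlapped. Means over the 4 libraries were 14.7 CPM per kilobase for mt-Rnr1 and 842 for mt-Rnr2. How far these counts follow the amounts of the 2 RNAs in the cell was not tested.

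Among 15 tested translation factors 4 were positive and 11 negative (median -0.05), with Lrpprc, which keeps mitochondrial messenger RNAs stable, at -0.22 (SE 0.16) and the elongation factor Tufm at -0.16 (SE 0.16). Of 27 assembly and RNA modification factors 10 were positive and 17 negative (median -0.03). Mpv17l2 had 15.4, 15.3, 11.7 and 9.78 CPM, without overlap (log2 fold change -0.51, SE 0.22, unadjusted p = 0.0389, adjusted p = 1 by edgeR), and Ybey had a log2 fold change of -0.41 (SE 0.24). Of 20 mitochondrial tRNA synthetase genes and amidotransferase subunits 4 were positive and 16 negative (median -0.09). Nars2, the asparaginyl enzyme, had 23.6, 21.7, 19.1 and 16.9 CPM and Qrsl1 had 25.9, 20.7, 20.6 and 18.8 CPM, with log2 fold changes of -0.33 (SE 0.19) and -0.24 (SE 0.20). None of the genes in these 4 lists was called.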

How the data were processed

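RNA was sequenced from 2 wild type and 2 Mettl4 knockout libraries of mouse neural stem cells. The authors deposited 1 table per library of whole-number read counts per Ensembl gene, not normalized. The submitters' processing notes name STAR 2.7.10 as well as featureCounts, on build GRCm39. Settings for strand and multiple matches are not stated there. Per the labels' protocols, libraries were made with an NEBNext Ultra RNA kit.

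Symbols, gene types, lengths and GC content came from GENCODE M21 (an earlier build, from which no coordinates are printed), which matched 52133 of 55414 identifiers. Promoters and their coordinates came from the RefSeq table on GRCm38.p6, not the build of the counts. Genes were filtered with filterByExpr (minimum count 10), which left 19912. Knockout was compared with wild type in edgeR 4.0.16, run in R 4.3.3 (TMM factors, quasi-likelihood F test, robust=TRUE), and p-values were adjusted by Benjamini-Hochberg over all 19912 genes, with calls under 0.05. Standard errors were derived from the F statistic, and 95% intervals from these. The biological coefficient of variation was 16.5%. Within each genotype, neither library was a repeat of the other: the chi-square over its degrees of freedom was 16.6 for the wild type pair and 26.3 for the knockout pair. Pairs across genotypes were not checked. CPM per kilobase divides by the longest transcript tagged as APPRIS principal. For a gene without that tag it divides by the longest transcript tagged basic, protein-coding where present, or else by the longest of the gene.

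The test was checked on simulated counts for this comparison with the means and library sizes of the 19912 genes, in 3 runs with 200 changed genes drawn in each. Of the genes with a 1.5-fold change 10.1% were called, of those with a 2-fold change 49.2% and of those with a 4-fold change 89.2%. There were 16 false calls in all. These rates belong to runs with 200 changed genes, whereas the reported fit of the data called 1 gene. Each simulated gene had the dispersion of the fitted trend at its level, with no further spread between genes. The changed genes were drawn from all tested genes, which had a median of 11 CPM against 34.8 for the 78 genes. The rates are therefore not those of the set. Recovery with fewer changed genes, or with the replicate and GC trends of these libraries, was not tested.

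The genes and lists were chosen with earlier results of these data known. Named are Mettl4, genes of the set under an unadjusted p of 0.05 (there were 0), in each subunit the 4 most positive and 4 most negative log2 fold changes and the 3 highest and 3 lowest levels per kilobase, the Mrps18 paralogues, the other ribosome proteins and RNAs, and the 2 smallest p of each further list. Mrps25, Mrps30, Mrps36, Mrpl28, Mrpl46, Gm5776 and the other stalk proteins are named outside this rule, after their values were seen. Alternatives were other scalings, filters, DESeq2 1.42.0, limma-voom (limma 3.58.1), robust=FALSE, protein-coding genes only, each library left out, the replicate number as a block, and removal of GC (spline with 5 degrees of freedom) and length trends. Counts by direction, intervals by setting, groups without overlap and replicate differences under other scalings were added after the data were seen.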

Additional observations from a re-analysis of the deposited data

How the results depend on the processing

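In none of the 17 alternatives was a gene of the set called. The smallest adjusted p over them was 0.459, for Mrps33 without knockout replicate 1 (edgeR), against 1 in the reported fit. Outside the fits that left out a library, the median log2 fold change stayed between -0.02 and 0.01 for the large and between -0.02 and 0.02 for the small subunit, and 20 to 27 large and 12 to 15 small subunit genes were positive. Leaving out each library in turn moved the medians over -0.15 to 0.14 and -0.08 to 0.03, the log2 ratio of summed CPM over -0.17 to 0.11 and -0.09 to 0.08, and the positive genes over 5 to 35 and 4 to 18. The count of genes called among all tested, 1 as reported, was 41 without a low-count filter, 9 in DESeq2, 9 with the replicate block, 73 with the replicate block and GC trend removed, and 1 to 47 with a library left out; the cause was not tested. Some genes had an unadjusted edgeR p under 0.05 in an alternative: Mrps33 with the replicate block (log2 fold change 0.26, unadjusted p = 0.0242, adjusted p = 0.559), Mrps33, Mrps11 and Mrpl44 with the replicate block and GC trend removed, Mrps33, Mrpl22, Mrpl20 and Mrps21 without knockout replicate 1, and Mrps11, Mrps18c and Mrpl32 without wild type replicate 2. With the GC trend removed the interval of 1 gene reached a log2 difference of 1.00. The labels mark no pairing, so the replicate numbers were not taken to pair the libraries. Deviations of wild type and knockout replicate 1 from their group means had a correlation of 0.228 across the 19912 tested genes. The replicate differences had one of 0.55 across 9933 protein-coding genes of at least 8 CPM. Whether same-numbered libraries belong together was not tested.

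Of 27 named genes of the set, 13 kept their sign in every alternative. Mrps18b (-0.02 as reported) was 0.02 with the GC trend removed and 0.02 with the block added, and Ptcd3 (-0.01) was 0.00 in DESeq2. With a library left out, log2 fold changes that changed sign ranged over -0.07 to 0.58 for Mrpl22, -0.05 to 0.60 for Mrpl32, -0.17 to 0.54 for Mrpl20, -0.06 to 0.20 for Mrpl33, -0.42 to 0.18 for Mrpl13, -0.09 to 0.15 for Mrpl19, -0.11 to 0.03 for Mrpl17, -0.02 to 0.50 for Mrps33, -0.14 to 0.57 for Mrps21, -0.05 to 0.66 for Mrps11, -0.16 to 0.00 for Mrps24, -0.13 to 0.00 for Mrps18a, -0.28 to 0.61 for Mrps18c, -0.06 to 0.04 for Ptcd3, -0.18 to 0.65 for Chchd1, -0.17 to 0.37 for Aurkaip1, -0.15 to 1.02 for mt-Rnr2 and -0.34 to 0.05 for Tufm. Mrps18b ranged over -0.02 to -0.01. Others kept their sign but not their size, such as Mrpl44 (0.16 to 0.39), Mrps15 (0.09 to 0.29), Mrps12 (0.01 to 0.24), Mrpl2 (-0.41 to -0.12), Mrpl34 (-0.37 to -0.07), Mrpl12 (-0.27 to -0.08), Mrps7 (-0.29 to -0.05), Mrps35 (-0.26 to -0.07), Mrps6 (-0.24 to -0.08), Mrps34 (-0.27 to -0.06), Mrps26 (-0.22 to -0.02) and mt-Rnr1 (-1.03 to -0.26), while Mrpl10 (-0.24 to -0.18) and Mrpl37 (-0.27 to -0.15) moved less. With 2 libraries a group, small log2 differences could not be resolved for these genes at the depth of 12812064 to 19310668 counts. A fit that leaves a group with 1 library takes its spread from the other group.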
